A study of Mus musculus with 6 samples.

Results

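The 10 genes described here are long noncoding RNAs of the nervous system or of the nucleus, chosen by symbol: *Malat1*, *Neat1*, *Miat*, *Rmst*, *Sox2ot*, *Pantr1*, *Gas5*, *Dlx6os1*, *Mir9-3hg* and *Mir99ahg*. All 10 were found among the 32493 genes of the count table, and 8 had enough reads to be tested. RNA-seq compared neural stem cells (NSCs) of miR-151 cko embryos with those of ctrl embryos, both taken from the lateral ventricle at E14.5 and grown for 3 generations in proliferation medium with B27, EGF and bFGF. All embryos carried miR-151 fl/fl alleles on a C57BL/6J background. The ctrl embryos, called wt in the sample labels, were negative for Cre, while Emx1-IRES-Cre, active in the dorsal telencephalon, was present in the cko embryos. The comparison asks what the loss of miR-151 does to the transcriptome of cultured NSCs. It rested on 3 cko libraries and on ctrl libraries 1 and 3, because the column of ctrl replicate 2 equals the mean of the other two ctrl columns, rounded up, in each of 32493 genes. The study describes the cko and ctrl embryos as littermates, but no source used here says which libraries share a litter or whether each came from its own embryo, so the p-values measure only the spread between these samples.

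Long noncoding RNAs are transcripts without a long reading frame. *Malat1* is the abundant RNA of nuclear speckles, where splicing factors gather, and its neighbour *Neat1* is the scaffold of paraspeckles. *Miat* (also called Gomafu) forms separate nuclear domains in neural cells. *Rmst* and *Sox2ot* are tied to the stem cell factor SOX2, *Pantr1* lies beside the POU factor gene *Pou3f3*, and *Dlx6os1* (Evf2) lies in the *Dlx5*/*Dlx6* cluster of the ventral forebrain. *Gas5*, *Mir9-3hg* and *Mir99ahg* are host genes, whose introns or exons hold small RNAs. *Gas5* carries small nucleolar RNAs, *Mir9-3hg* a miR-9 precursor and *Mir99ahg* the precursors of miR-99a, let-7c and miR-125b.

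The miRNAs within these host genes are shown because they name the small RNAs that the host transcripts carry. Coordinates are those of GRCm38, which UCSC names mm10, and sequences are from RefSeq (GRCm38.p6). RefSeq places mature miRNAs on the same strand within 4 of the 10 genes: 2 in *Mir9-3hg*, 6 in *Mir99ahg*, 4 in *Rmst* and 1 in *Sox2ot*. The main arms are given 5′ to 3′, with the seed (bases 2 to 8), which pairs with target mRNAs, in capitals.
miR-9-5p (*Mir9-3hg*, chr7:79505279-79505301, plus strand): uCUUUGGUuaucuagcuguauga
miR-9-3p (*Mir9-3hg*, chr7:79505318-79505339, plus strand): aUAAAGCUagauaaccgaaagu
miR-99a-5p (*Mir99ahg*, chr16:77598940-77598961, plus strand): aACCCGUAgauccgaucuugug
let-7c-5p (*Mir99ahg*, chr16:77599672-77599693, plus strand): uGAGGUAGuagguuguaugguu
miR-125b-5p (*Mir99ahg*, chr16:77646279-77646300, plus strand): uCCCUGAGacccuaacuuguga
miR-135a-5p (*Rmst*, chr10:92072141-92072163, minus strand): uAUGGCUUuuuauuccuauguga
No seed is shared among these 6 arms. Mature miRNAs were not measured, because the libraries count longer RNA, so every value below is of the host transcript.

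The 5 libraries held 17883796 to 23335736 counts, and 3 counts, taken as the floor of detection, correspond to 0.129 to 0.168 CPM (counts per 1000000 counts of the library). NSC markers were abundant, with a summed level of 7401 to 9452 normalized CPM over 10 genes, whereas the summed microglial markers were at 0.230 to 0.800 and 3 of the 7 were at 0 in all libraries. *Emx1*, the gene whose locus drives Cre, had 1 to 10 counts in these cultured cells. *Mir151* itself was not analysed here, and its host *Ptk2* differed by -0.01 on the log2 scale (adjusted p = 0.943). The summed level of 8 astrocyte markers was 3876 and 2878 normalized CPM in ctrl libraries 1 and 3 and 2132, 1199 and 1244 in the cko libraries, with 5 of 8 genes lower and none higher. In bulk samples, fewer cells of a type and less RNA per cell cannot be told apart.

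The levels of the 10 RNAs spanned several orders of magnitude. Expressed per length, as normalized CPM per kb of annotated exon, *Malat1* was first in ctrl NSCs with 448, followed by *Miat* with 30.7, *Gas5* with 29.1, *Mir9-3hg* with 22.9, *Pantr1* with 14.3 and *Sox2ot* with 3.03. *Mir99ahg* (0.733) and *Neat1* (0.313) were low, and *Rmst* (0.047) and *Dlx6os1* (0.005) were lowest. Against the floor of 3 counts, *Rmst* had 5 and 9 counts in ctrl libraries 1 and 3, and *Dlx6os1* had 0 and 1. In ctrl NSCs the range of *Miat* (23.4 to 38.1) overlapped those of *Gas5* and *Mir9-3hg*, so its place is not resolved, and the other neighbours in this order were apart in the 2 libraries. In cko NSCs *Mir9-3hg* came second, with 43.0 and a range of 35.4 to 47.5 that overlapped neither *Malat1* above it nor *Pantr1* below it, and *Pantr1* came next with 24.7. The range of *Miat* (mean 21.7, range 19.4 to 25.9) overlapped those of *Pantr1* and *Gas5* (21.9), so its order with them is not resolved, nor is that of *Dlx6os1* and *Rmst* at the bottom. The exon length of *Neat1*, 20771 bp, includes its long isoform, and reads were not assigned to isoforms. That of *Gas5*, 3760 bp of a gene of 4118 bp, takes in the small nucleolar RNAs it hosts. The level of *Gas5* per kb, and its place, depend on that length.

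**Figure D1:**
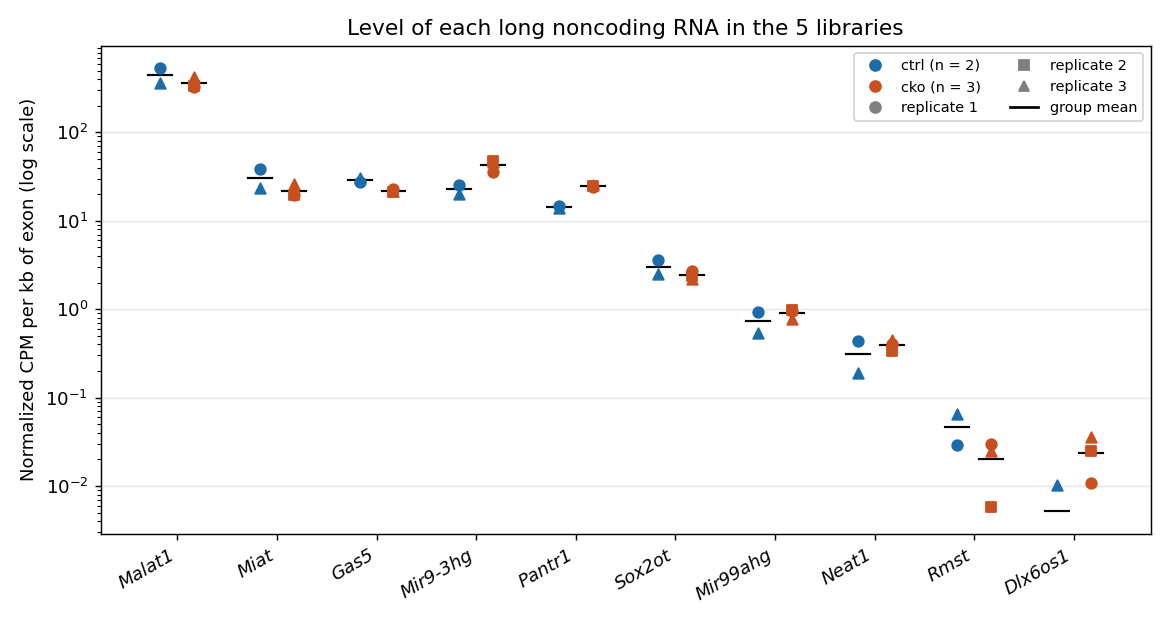
Level of each long noncoding RNA in normalized CPM per kb of annotated exon (log axis), with 1 symbol for each library (circle, replicate 1; square, replicate 2; triangle, replicate 3), blue for ctrl (n = 2) and orange for cko (n = 3), and a line at the group mean. *Malat1* stands above the other 9 genes in every library, *Pantr1* and *Mir9-3hg* are higher and *Gas5* lower in all cko libraries, and ctrl library 1 of *Dlx6os1*, at 0, is not drawn.

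Of the 8 genes tested, *Pantr1* and *Mir9-3hg* were higher in cko NSCs, *Gas5* was lower, and 5 did not pass an adjusted p of 0.05 in the edgeR quasi-likelihood test. Over all 16710 genes tested, 16.4% passed the same threshold, 7.86% higher and 8.57% lower. The share of tested members called was 37.5%, but with 8 genes this is a difference of few genes. At the threshold of the study, a log2 fold change beyond 0.9 with an unadjusted p under 0.01, *Mir9-3hg* alone was called, against 6.55% of all genes. The libraries of the 2 genotypes did not overlap for 3 of the 8, the same 3 genes, against 49.7% of all genes. The median log2 fold change was -0.003 over the 8 genes and -0.003 over all genes. Among all 1518 annotated long noncoding RNA genes that were tested, 38 were higher and 55 lower, which is 6.13% called, with a median of -0.11. The 10 genes together held 0.288% to 0.446% of the counts of a library.

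**Figure D2:**
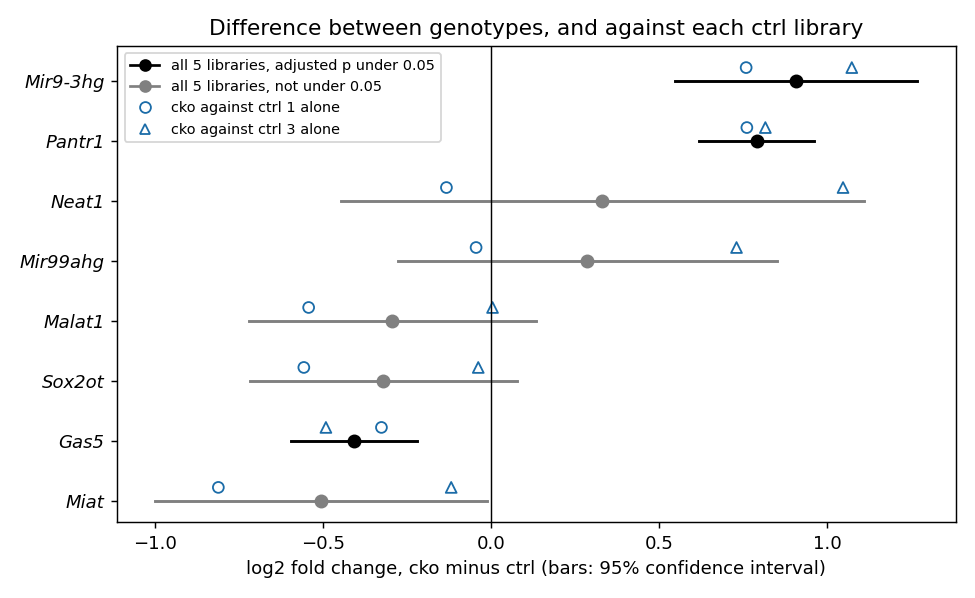
Log2 fold change (cko minus ctrl) of the 8 tested genes with its 95% confidence interval from all 5 libraries, black where the adjusted p was under 0.05, and the same difference against ctrl library 1 alone (open circle) or ctrl library 3 alone (open triangle). Of *Pantr1*, *Mir9-3hg* and *Gas5* both open symbols lie on the same side of 0, while those of *Neat1*, *Mir99ahg* and *Malat1* lie on either side of it or touch it.

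*Pantr1* (ENSMUSG00000060424, chr1:42590782-42694842, minus strand, 10 exon blocks) had the smallest standard error of the 8 genes. It is transcribed away from *Pou3f3*, a POU-domain transcription factor gene of upper-layer cortical neurons and their progenitors, whose annotated start lies 925 bp away. Its level was 65.2 and 62.2 normalized CPM in ctrl libraries 1 and 3, and 108, 109 and 113 in the cko libraries. All cko libraries were higher than both ctrl libraries, and the libraries within a genotype lay close together. The ctrl mean was 63.7 ± 2.16 (SD, n = 2) and the cko mean 110 ± 2.29 (SD, n = 3). The log2 fold change was 0.79 (standard error 0.073, 95% confidence interval 0.62 to 0.96, adjusted p = 0.0016 in edgeR). At an adjusted p under 0.05 it was called in each of the 12 fits run, the one above included, but at 0.79 it lies short of the fold change limit of the study. Over the fits that each leave out a library it was 0.76 to 0.82.

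*Pou3f3* rose as well, from 493 and 459 normalized CPM to 606, 614 and 604, with a smaller log2 fold change of 0.35 (adjusted p = 0.0207). Without cko library 1, 2 or 3 its adjusted p was 0.056, 0.128 and 0.112. The reads of *Pantr1* were 13.2% and 13.6% of those of *Pou3f3* in ctrl libraries 1 and 3, and 17.9%, 17.8% and 18.7% in the cko libraries. These ratios did not overlap between the genotypes, and a two-sided exact permutation test gave p = 0.2, the smallest that 2 against 3 libraries allow, so this test cannot reach 0.05 for any of the 6 pairs of genes compared. The antisense gene *4930420N18Rik*, within *Pantr1*, shares no exonic base with it and stood at 0.160 to 0.175 normalized CPM in ctrl and 0.336 to 1.01 in cko NSCs (adjusted p = 0.072).

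*Mir9-3hg* (ENSMUSG00000097023, chr7:79500026-79534403, plus strand, 6 exon blocks) had the largest log2 fold change of the 8 genes. miR-9 is an abundant brain miRNA that acts on progenitor genes during neurogenesis. The host transcript stood at 111 and 88.6 normalized CPM in ctrl libraries 1 and 3, and at 154, 207 and 201 in the cko libraries. The lowest cko library, number 1, was above both ctrl libraries. The mean was 99.9 ± 16.0 in ctrl (SD, n = 2) and 188 ± 28.9 in cko NSCs (SD, n = 3). The log2 fold change was 0.91 (standard error 0.15, 95% confidence interval 0.55 to 1.27, adjusted p = 0.0097). Without cko library 2 the adjusted p was 0.0519, and without cko library 3 it was 0.0535, at log2 fold changes of 0.82 and 0.85.

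Within the body of *Mir9-3hg* lie 3 short genes on the same strand, annotated as transcripts still to be experimentally checked, which share no exonic base with it. All 3 rose. *A330074H02Rik* gave a log2 fold change of 0.69 (adjusted p = 0.0494), *2900037B21Rik* one of 1.04 (adjusted p = 0.0183) and *Gm37608* one of 0.84 (adjusted p = 0.0184). Without cko library 2 the adjusted p of these genes was 0.177, 0.088 and 0.084, and without cko library 3 it was 0.171, 0.084 and 0.083. *A330074H02Rik* was also over the threshold without ctrl library 3 (0.095). Intronic reads of the host and reads of separate transcripts cannot be told apart in gene counts. The flanking coding genes, *Polg* (DNA polymerase gamma) and *Rhcg* (an ammonium transporter), gave log2 fold changes of 0.21 and 0.36 and did not pass (adjusted p = 0.233 and 0.587).

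**Figure D3:**
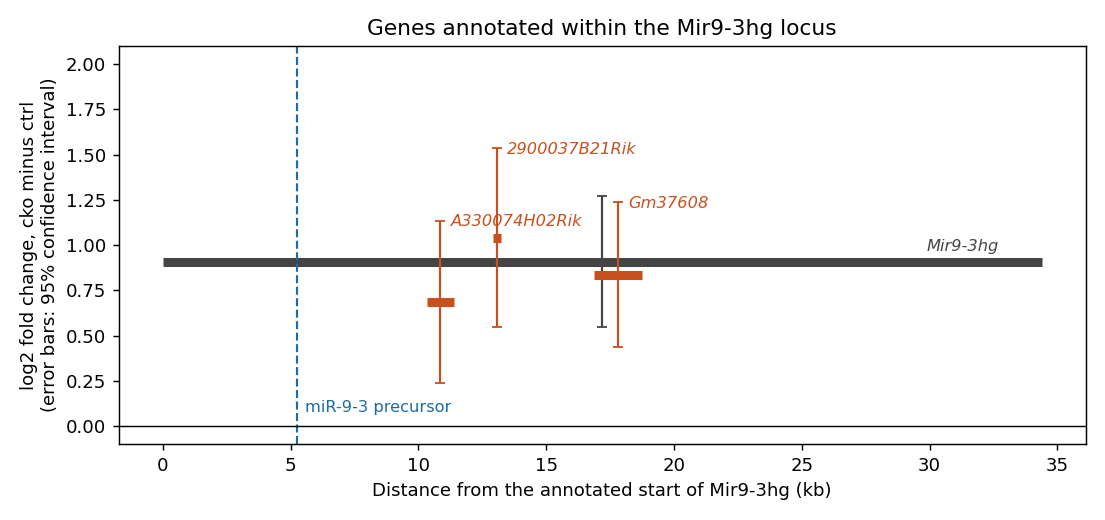
Log2 fold change (cko minus ctrl, all 5 libraries) against distance in kb from the annotated start of *Mir9-3hg*, with horizontal bars for the extent of each gene, vertical bars for the 95% confidence interval and a dashed line at the miR-9-3 precursor. *Mir9-3hg* (0.91) and the 3 genes inside it (0.69, 1.04 and 0.84) all lie above 0 with overlapping intervals.

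The promoter window of *Mir9-3hg*, the 250 bases before and 50 after the upstream one of 2 RefSeq starts, is printed because the host and the genes inside it rose together. It is rich in G and C (75.0%) and holds 35 CpG dinucleotides. The capitals mark GC boxes (GGGCGG, searched on both strands), the sites of SP-family factors.
*Mir9-3hg* promoter (chr7:79499776-79500075, plus strand): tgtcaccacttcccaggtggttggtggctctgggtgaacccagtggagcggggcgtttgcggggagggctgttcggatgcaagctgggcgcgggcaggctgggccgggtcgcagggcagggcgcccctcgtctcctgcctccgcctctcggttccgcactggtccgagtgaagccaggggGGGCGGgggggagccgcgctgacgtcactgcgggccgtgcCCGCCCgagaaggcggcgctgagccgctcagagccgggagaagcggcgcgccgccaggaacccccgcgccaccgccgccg
It holds 2 GC boxes, 1 on each strand, and 35.7% of all 32851 promoter windows of the table hold at least 1. The core of the site read by the Notch effector RBPJ, TGGGAA, is present once, on the reverse strand and away from the GC boxes, as it is in either orientation in 25.6% of windows. Neither CCAAT (37.4% of windows) nor TATAAA (13.6%) is in it. The window of the downstream start (chr7:79515185-79515484, not printed) holds 1 GC box and 1 CCAAT on the reverse strand, and neither TGGGAA nor TATAAA. RefSeq windows were found for 6 of the 10 genes, and a GC box was also in those of *Gas5* and *Miat* and not in those of *Malat1*, *Mir99ahg* and *Dlx6os1*. TGGGAA was also in the window of the upstream start of *Gas5*, which was lower in cko NSCs. It was not in those of *Miat*, *Malat1*, *Mir99ahg* and *Dlx6os1*. A match of letters is a description of the window and does not show that a factor binds.

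The other miRNA host gene, *Mir99ahg* (ENSMUSG00000090386, chr16:77236317-77773427, plus strand, 18 exon blocks), did not pass. Its miRNAs, let-7c and miR-125b among them, are known for promoting differentiation. It stood at 13.3 and 7.68 normalized CPM in ctrl libraries 1 and 3, and at 13.5, 14.02 and 11.0 in the cko libraries. Ctrl library 1 lay among the cko libraries and ctrl library 3 below all of them. The log2 fold change was 0.29 (standard error 0.24, adjusted p = 0.451). It was 0.73 without ctrl library 1 (adjusted p = 0.0300) and -0.04 without ctrl library 3. The reads of *Mir9-3hg* were 838% and 1153% of those of *Mir99ahg* in ctrl libraries 1 and 3, and 1146%, 1480% and 1823% in the cko libraries, so the ratio of the host genes overlapped between the genotypes. Of 14 genes of the table that overlap it, 6 were tested and none passed in either direction. Of its flanking coding genes, *Cxadr*, a cell adhesion protein, lies 528061 bp away and rose by a log2 fold change of 0.69 (adjusted p = 0.0309). *Cxadr* did not pass without cko library 1, 2 or 3 (adjusted p = 0.091, 0.128 and 0.097). *Usp25*, a deubiquitinase, lies 119536 bp away and gave 0.17 (adjusted p = 0.201).

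A list of 12 other long noncoding host genes of miRNAs gave 6 that could be tested, of which 4 were higher, none lower and 2 not called, with a median log2 fold change of 0.59. *Mir124a-1hg* (log2 fold change 0.84, adjusted p = 0.0072) and *Mir124-2hg* (0.48, adjusted p = 0.022) are hosts of miR-124, the main miRNA of neurons. *C130071C03Rik* (0.70, adjusted p = 0.0182), at 162 and 113 normalized CPM in ctrl and 218, 226 and 228 in cko NSCs, is the host of the miR-9-2 precursor, whose mature arms are the miR-9-5p and miR-9-3p printed above. *Mir670hg* gave 0.99 (adjusted p = 0.0339). Host genes of 2 miR-9 precursors were thus higher with all 5 libraries, but neither was called in every fit that leaves out a library. Over those fits the log2 fold change of *C130071C03Rik* was 0.47 to 0.98, and its adjusted p rose to 0.083. *Mir124-2hg* and *Mir670hg* were named after their values were seen. The 2 not called were *Mir17hg* (-0.62, adjusted p = 0.333), host of a cluster known for driving proliferation, and *Mir22hg* (-0.20, adjusted p = 0.611). *Mir17hg* was called lower without ctrl library 3 (-1.08, adjusted p = 0.0465) and stood at 0.074 without ctrl library 1. The 4 calls fell to 1, 0 and 1 without cko library 1, 2 and 3, and to 3 without ctrl library 1.

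*Gas5* (ENSMUSG00000053332, chr1:161034422-161038539, plus strand, 3 exon blocks) was lower in cko NSCs. It is a growth arrest-specific RNA whose spliced product is translated only briefly and is degraded by nonsense-mediated decay, and it belongs to the class whose RNAs begin with a tract of pyrimidines. Its level was 104 and 115 normalized CPM in ctrl libraries 1 and 3, and 85.7, 79.9 and 81.8 in the cko libraries. Every cko library was below both ctrl libraries. The mean was 109 ± 8.08 in ctrl (SD, n = 2) and 82.4 ± 2.95 in cko NSCs (SD, n = 3). The log2 fold change was -0.41 (standard error 0.080, 95% confidence interval -0.59 to -0.22, adjusted p = 0.0162). This call was less stable than that of *Pantr1*. Without cko library 2 the adjusted p was 0.0905 and without cko library 3 it was 0.0858, at log2 fold changes of -0.39 and -0.41.

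RefSeq lists 2 starts for *Gas5*. The 30 bases around the downstream one are printed for their pyrimidine start, with the run of C and T from the first transcribed base in capitals.
*Gas5* start (chr1:161035151-161035180, plus strand): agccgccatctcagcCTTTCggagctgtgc
The run is 5 bases long. A C at the start followed by C or T to a length of at least 5 bases was found in 2.51% of all promoter windows. Opposite *Gas5* and overlapping its body, without a shared exonic base, lies *Zbtb37*, a zinc finger gene, which gave a log2 fold change of -0.32 (adjusted p = 0.0628). The reads of *Gas5* were 105% and 100% of those of *Zbtb37* in ctrl NSCs, and 100%, 99.9% and 89.8% in cko NSCs, so that this ratio overlapped between the genotypes. Whether reads were counted by strand is not given in the sources used here.

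The other genes that host small nucleolar RNAs are a list of 17, of which 11 were tested. Of these 4 were lower, none higher and 7 not called, and the median log2 fold change was -0.36. *Snhg17* fell from 40.0 and 37.7 to 26.2, 27.9 and 27.6 normalized CPM (log2 fold change -0.51, adjusted p = 0.0103). *Snhg12* fell from 17.1 and 21.98 to 10.5, 11.5 and 9.10 (-0.92, adjusted p = 0.0118). *Snhg11* (-0.83, adjusted p = 0.0146) and *Snhg20* (-0.71, adjusted p = 0.0245), named after their values were seen, fell too. *Snhg8* (0.12) and *Snhg5* (0.09) had the only positive values of the list. The number of lower calls was 3, 1 and 1 without cko library 1, 2 and 3, and 6 without ctrl library 1. Of 10 factors of nonsense-mediated decay, *Smg9* (0.36, adjusted p = 0.0391) and *Upf3a* (0.28, adjusted p = 0.0462) were higher and none was lower, with a median of -0.04, and *Smg6* (-0.29, adjusted p = 0.097) had the smallest p among negative values. *Smg9* did not pass in any of the 5 fits that leave out a library (adjusted p from 0.055 to 0.171), and *Upf3a* passed only without ctrl library 3.

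**Figure D4:**
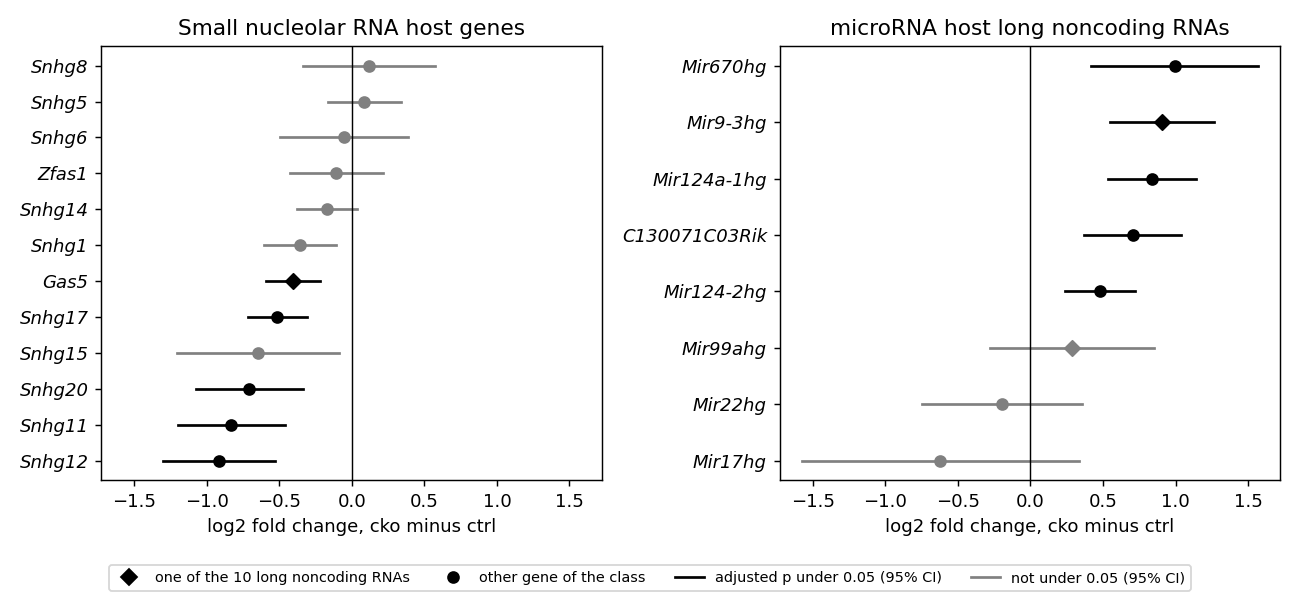
Log2 fold change (cko minus ctrl, 95% confidence interval, all 5 libraries) of the tested host genes of small nucleolar RNAs (left) and of miRNAs (right), with diamonds for *Gas5*, *Mir9-3hg* and *Mir99ahg* and black where the adjusted p was under 0.05. The 5 black points on the left lie below 0 and the 5 on the right above it.

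*Malat1* (ENSMUSG00000092341, chr19:5795690-5802672, minus strand, 1 exon block) was among the most abundant transcripts of these NSCs. It took 0.230% to 0.375% of all counts, between 79.0% and 84.2% of the counts of the 10 genes, and ranked 6 to 13 among all genes of a library. In ctrl libraries 1 and 3 its level was 3733 and 2530 normalized CPM, against 2304, 2368 and 2996 in the cko libraries. Ctrl library 1 was above all others, and ctrl library 3 lay within the cko range. cko and ctrl NSCs differed by -0.29 on the log2 scale (standard error 0.18, 95% confidence interval -0.72 to 0.13, adjusted p = 0.308). It was -0.54 without ctrl library 3 (adjusted p = 0.0172) and 0.0046 without ctrl library 1.

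*Neat1* (ENSMUSG00000092274, chr19:5824708-5845478, minus strand, 1 exon block) lies next to *Malat1* and was far less abundant, with reads equal to 0.156% to 0.362% of those of *Malat1*. Its level was 9.04 and 3.95 normalized CPM in ctrl libraries 1 and 3, and 8.34, 6.94 and 9.42 in the cko libraries. Ctrl library 3 was below all others. Its log2 fold change was 0.33 (standard error 0.33, 95% confidence interval -0.45 to 1.11, adjusted p = 0.537), and it was 1.05 without ctrl library 1 (adjusted p = 0.0181) and -0.13 without ctrl library 3. The ratio of *Neat1* to *Malat1* reads was 0.242% and 0.156% in ctrl and 0.362%, 0.293% and 0.314% in cko NSCs, without overlap. *Frmd8*, a coding gene that flanks the pair, gave -0.10 and did not pass (adjusted p = 0.437).

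*Miat* (ENSMUSG00000097767, chr5:112213228-112229395, minus strand, 6 exon blocks) stood at 354 and 217 normalized CPM in ctrl libraries 1 and 3, and at 180, 183 and 241 in the cko libraries. Ctrl library 1 was again above all others, with ctrl library 3 within the cko range. Its log2 fold change was -0.51 (standard error 0.21, 95% confidence interval -0.998 to -0.012), with an unadjusted p of 0.0458 in edgeR and an adjusted p of 0.145. It was -0.81 without ctrl library 3 (adjusted p = 0.0048) and -0.12 without ctrl library 1. Relative to *Malat1*, its reads were 9.49% and 8.58% in ctrl and 7.82%, 7.73% and 8.03% in cko NSCs, a narrower spread than that of either gene alone, and without overlap. *Miat* shares 2260 exonic bp with the antisense gene *Gm26953*, which had only 7 to 23 counts a library.

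Paraspeckle proteins were examined beside *Neat1*. Of 14 tested, 5 were higher, none lower and 9 not called, with a median log2 fold change of 0.16. *Nono*, one of the core proteins that hold *Neat1*, rose from 410 and 396 to 595, 585 and 589 normalized CPM (log2 fold change 0.55, adjusted p = 0.0042). *Hnrnpk* rose as well (0.33, adjusted p = 0.0265, and 0.159 and 0.143 without cko library 2 and 3), and *Nudt21*, *Dazap1* and *Smarca4*, named after their values were seen, had log2 fold changes of 0.29, 0.38 and 0.34. Without cko library 2 or 3, 1 of the 14 was called, and *Nono* was called in each of the 5 fits that leave out a library. Of 16 proteins of nuclear speckles, where *Malat1* resides, the splicing factor *Srsf3* was higher (0.45, adjusted p = 0.0097) and none was lower, with a median of -0.004. *Srsf3* did not pass without cko library 2 or 3 (adjusted p = 0.075 and 0.071). *Srsf1* (0.23, adjusted p = 0.0755) and the scaffold proteins *Srrm1* (-0.26, adjusted p = 0.0613) and *Srrm2* (-0.22, adjusted p = 0.199) were not called.

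*Sox2ot* (ENSMUSG00000105265, chr3:34104270-34682619, plus strand, 19 exon blocks) spans *Sox2*, which lies in it on the same strand without a shared exonic base. It stood at 41.5 and 28.7 normalized CPM in ctrl libraries 1 and 3, and at 31.7, 27.5 and 25.4 in the cko libraries. Ctrl library 1 was above the rest, which overlapped. On the log2 scale the difference was -0.32 (standard error 0.17, adjusted p = 0.236), and it was -0.56 without ctrl library 3 (adjusted p = 0.0185) and -0.04 without ctrl library 1. *Sox2*, the NSC transcription factor, was near 600 in all libraries, at 583 and 556 in ctrl and 619, 626 and 607 in cko NSCs (log2 fold change 0.12, adjusted p = 0.314). The reads of *Sox2ot* were 7.12% and 5.16% of those of *Sox2* in ctrl and 5.12%, 4.40% and 4.18% in cko NSCs, without overlap. For the *Neat1*, *Miat* and *Sox2ot* ratios, too, the exact permutation test could give no p under 0.2. Of 8 genes of the table within *Sox2ot*, 4 were tested and none passed. Downstream of *Sox2ot* and 1071486 bp away, *Atp11b*, a phospholipid flippase, fell by 0.42 on the log2 scale (adjusted p = 0.0179). *Atp11b* did not pass without cko library 1, 2 or 3 (adjusted p = 0.053, 0.085 and 0.072). *Dnajc19*, a mitochondrial import factor 22948 bp upstream of *Sox2ot*, gave 0.30 (adjusted p = 0.119).

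*Rmst* and *Dlx6os1* were at the limit of detection and were not tested. *Rmst* (ENSMUSG00000112117, chr10:92071037-92165170, minus strand) had 5 and 9 counts in ctrl libraries 1 and 3, and 4, 1 and 4 counts in the cko libraries. *Dlx6os1* (ENSMUSG00000090063, chr6:6820189-6871592, minus strand) had 0 and 1 counts in ctrl and 1, 3 and 4 counts in cko NSCs. At this depth no difference was detectable for either gene. The summed level of 10 markers of the ventral telencephalon, where *Dlx6os1* is known to be transcribed, was 46.6 to 54.2 normalized CPM in ctrl and 65.9 to 76.8 in cko NSCs. The coding genes nearest to *Rmst*, *Tmpo* (a nuclear lamina protein, 0.70, adjusted p = 0.0036) and *Nedd1* (a centrosomal protein, 0.54, adjusted p = 0.00996), both rose. They lie far from *Rmst*, at 889721 bp (*Tmpo*) and 519575 bp (*Nedd1*). *Nedd1* did not pass without cko library 2 or 3 (adjusted p = 0.069 and 0.055). *Sem1*, a proteasome subunit and the nearest coding gene below *Dlx6os1*, 241525 bp away, rose by 0.68 on the log2 scale (adjusted p = 0.0082, and 0.0501 without cko library 3).

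The ctrl libraries differed from each other more for these genes than for the median gene. The median absolute log2 difference between ctrl libraries 1 and 3 was 0.55 over the 8 tested genes and 0.23 over all 16710 genes, and ctrl library 1 was the higher of the pair for 7 of the 8, *Gas5* being the exception. Among the cko libraries the median log2 range was 0.36 for the 8 genes and 0.23 for all genes. The share of counts on annotated long noncoding RNA genes was 1.81% in ctrl library 1, 1.56% in ctrl library 3 and 1.31% to 1.47% in the cko libraries. This share includes the RNAs described here, with *Malat1* alone making up 16.0% to 20.7% of it, so it is not a separate measure. The share on mitochondrially encoded genes was 2.81% and 2.42% in ctrl libraries 1 and 3 and 2.45% to 3.03% in the cko libraries. *Gfap*, the intermediate filament gene of astrocytes, stood at 1008 normalized CPM in ctrl library 1 and 178 in ctrl library 3, and at 298, 86.7 and 122 in the cko libraries. Of the other astrocyte markers, *Aldh1l1* (257 and 131 in ctrl libraries 1 and 3), *Aqp4* (97.5 and 55.2) and *Gja1* (430 and 310) were higher in ctrl library 1. *S100b* (19.2 and 19.7), *Slc1a2* (631 and 646), *Aldoc* (594 and 662) and *Glul* (839 and 877) were slightly lower there. The part of these differences in the values of *Malat1*, *Miat*, *Sox2ot*, *Neat1* and *Mir99ahg* was not tested.

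Other long noncoding RNAs of the nervous system or nucleus were a list of 24, of which 16 were tested, with 1 higher, 2 lower and 13 not called and a median log2 fold change of 0.06. *Rian*, an imprinted RNA of the Dlk1-Dio3 region, rose from 6.77 and 5.39 to 12.8, 14.96 and 14.9 normalized CPM (log2 fold change 1.22, adjusted p = 0.0051). *Six3os1*, which lies beside the forebrain gene *Six3*, fell from 88.7 and 81.7 to 5.20, 4.03 and 4.41 (-4.23, adjusted p = 2.96e-05). *Firre*, an X-linked nuclear RNA, fell from 131 and 104 to 76.5, 76.7 and 76.6 (-0.62, adjusted p = 0.0088), and was not called without cko library 2 or 3 (adjusted p = 0.053 and 0.051). *Dleu2* gave 0.46 (adjusted p = 0.0523). Of 8 tested partner genes of the 10 RNAs, *Pou3f3* was called, while *Celf1*, an RNA-binding protein, gave 0.26 (adjusted p = 0.0516), and the glucocorticoid receptor *Nr3c1*, to which *Gas5* is known to bind, gave -0.10 (adjusted p = 0.365). *Qk*, a splicing regulator that binds *Miat*, gave -0.09 (adjusted p = 0.455), and the median of the 8 was 0.08.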

How the data were processed

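NSCs from 3 cko and 3 ctrl samples were profiled by RNA-seq. The authors deposited raw counts per gene in 6 columns, made after FastQC (v0.11.5), NGSQC (v2.3.3) and HISAT2. Their methods name mm10 and the sample labels name GRCm39, and the counting tool, annotation and strandedness are not given in the sources used here. The labels and the methods also name different RNA extraction kits. The deposited column of ctrl replicate 2 holds another kind of value, an average of ctrl replicates 1 and 3 that was rounded up, and was used only in the 6-column alternative. Of 32493 gene IDs, 31829 were found in GENCODE M21 (GRCm38), the source of names and positions.

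Counts were filtered by edgeR 4.0.16 (filterByExpr, R 4.3.3), scaled with TMM factors and compared over 16710 genes with the quasi-likelihood test, with Benjamini-Hochberg adjustment over all of them, and no other adjustment. Every adjusted p in the text is from edgeR unless another tool is named. Normalized CPM are counts scaled to a common size of the TMM-adjusted library, and SD is over libraries. Ratios of the reads of 2 genes were compared by a two-sided exact permutation test over libraries. The steps were tested on simulated data. Figures were drawn with matplotlib 3.10.9.

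The 10 genes, the lists of other genes and the pairs of genes were chosen with earlier results of these data known. Named genes are the 10, the genes that overlap them, the nearest coding gene on each side, and the 2 genes of smallest p in each direction of each list, and others are said to be named after their values were seen. Overlapping genes without enough reads are given by number only, and some results that this rule gives are not reported here. As alternatives, the test was run with all 6 columns, in DESeq2 1.42.0, with size factors by the median of ratios, unfiltered, with a minimum of 10 counts per library, with a replicate block, without each library in turn, and at the threshold of the study. Floors of 3 counts cover counting error only.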

Additional observations from a re-analysis of the deposited data

How the results depend on the processing

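At an adjusted p under 0.05, *Pantr1* was called higher in 12 of 12 fits, the reported one included, *Mir9-3hg* in 10 and *Gas5* lower in 9. Over all genes, 2237 were lower without a filter, 2865 higher and 2794 lower with all 6 columns, in which the averaged column shrinks the spread, and 399 higher and 696 lower at the threshold of the study. Leaving out 1 library gave 317 to 1812 higher and 416 to 2062 lower genes. Of the 10 RNAs, 3 were lower without a filter, when *Malat1* and *Miat* passed with adjusted p of 0.0061 and 2.55e-06. Their log2 fold changes in that fit, -0.29 and -0.50, hardly moved. Their standard errors fell from 0.18 to 0.085 and from 0.21 to 0.095, although the ctrl libraries differ as before. At the threshold of the study 1 (*Mir9-3hg*) was higher and 0 were lower, so *Pantr1* and *Gas5* were not called. Leaving out 1 library gave 1 to 4 higher and 0 to 4 lower RNAs. Log2 fold changes ran from -0.54 without ctrl library 3 to 0.0046 without ctrl library 1 for *Malat1*, from -0.13 to 1.05 for *Neat1* and from -0.044 to 0.73 for *Mir99ahg* over the same pair of fits, so each changed sign. Where a ctrl library is left out, the remaining one is assumed to vary like the cko libraries. The cause of these changes was not tested.

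The replicate numbers of the labels were tried as a block. The deviations of same-numbered libraries from their group mean correlated at 0.143 (replicate 1) and 0.051 (replicate 3). With 2 ctrl libraries, the deviations of one mirror those of the other. The 2 correlations are therefore not independent, and the pairing is not shown. With the block, which takes the difference from replicates 1 and 3 because cko library 2 has no partner, 918 genes were higher and 1065 lower, 2 of the 10 RNAs were higher and 0 were lower, *Gas5* having an adjusted p of 0.063. Paraspeckle proteins called higher fell to 1, decay factors to 0 and partner genes to 0 (*Pou3f3*, adjusted p = 0.104), and other long noncoding RNAs called higher came to 2. The depth limits *Rmst* and *Dlx6os1*, of which no more than 9 and 4 counts were seen in a library.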
